A study of Mus musculus with 6 samples.

Results

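Chemokines and their receptors were examined in inguinal white adipose tissue (iWAT), a subcutaneous depot of the groin where beige adipocytes arise in the cold. The members were all rows of the deposited RNA-seq table whose gene symbol names a chemokine ligand (Ccl, Cxcl, Cx3cl1, Xcl1) or a chemokine receptor (Ccr, Cxcr, Cx3cr1, Xcr1, the atypical receptors Ackr, and Ccrl2). This gave 62 rows of 22564, which carry 60 symbols, 37 of ligands and 23 of receptors. Of these rows, 26 passed the filter used for testing, FPKM (fragments per kilobase of transcript, scaled by library size) reaching 1 in 3 or more samples, as did 11650 rows in all. The other members are described by their values.

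The study compared 3 iWAT samples of mice housed at 4 °C (cold) with 3 of mice housed at 30 °C (thermoneutral), in both cases over 7 days. All mice were of the C57BL/6 strain, and the study's methods describe C57BL/6J males 8 weeks of age with no genetic change. Whether a sample is 1 mouse or a pool is not in the labels, which give adipocytes as the source although whole fat tissue was extracted, so that p-values measure only the spread between these samples. The table gives FPKM and counts that the authors had already divided by a size factor for each sample, called scaled counts here.

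Chemokines are small secreted proteins that direct the movement of leukocytes through receptors coupled to inhibitory G proteins. The CC, CXC, CX3C and XC families are named after the spacing of their conserved cysteines, and atypical receptors bind ligands without G protein signalling and remove them. In fat, monocytes enter through the Ccl2 and Ccr2 axis in obesity, resident macrophages express several CC ligands, and stromal cells are the main source of Cxcl12.

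The labels held against the thermogenic markers. Ucp1, the uncoupling protein of thermogenic fat, had 107026 to 137879 scaled counts in cold and 114 to 242 in thermoneutral samples. All 7 of 7 thermogenic adipocyte markers were higher in cold, where 6.24% of all genes tested were. Scaled counts summed to 17434977 to 17588754 in the cold group and 19276924 to 19603526 in the thermoneutral group. The median tested gene had a log2 fold change of -0.54 (log2FC, cold against thermoneutral) on the deposited scale and of -0.01 after each sample was centred on its median gene, so each member is given on the deposited scale and, where that changes its call, after centring. Markers of other cells set 2 libraries apart. Cold replicate 2 had B cell markers at a summed 67.3 FPKM, where cold replicates 1 and 3 had 14.98 and 3.79 and the thermoneutral group 1.73 to 2.70, and skeletal muscle markers at 6174 FPKM, where cold replicates 1 and 3 had 10.7 and 13.7 and the thermoneutral samples 156, 290.3 and 105. Thermoneutral replicate 1 had epithelial keratins and junction markers at a summed 838 FPKM, against 0.56 to 2.50 in the other 5 samples.

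The promoters of the members are shown with the sites searched in them, because the chemokine family is a textbook target of NF-κB and of interferon-activated factors. Promoter sequence from RefSeq (GRCm38.p6) was held for 46 of the 60 symbols, and the 250 bases before each gene's start were searched on both strands for the κB consensus and for the interferon-stimulated response element GAAANNGAAA. The κB consensus was found in 12 of the 46 member promoters (26.1%) and in 8.23% of all 27025 genes with a promoter. The response element was found in 3 of 46 (6.52%) and in 3.46% of all. Windows around matches are printed on the gene's strand, with the match in capitals, for a ligand that fell in cold (Ccl9), a receptor that was low in cold but under the filter (Ccr1), an atypical receptor of the same kind (Ackr2), and members that did not pass the test (Ccrl2 and Cxcl10):
Ccl9 (chr11:83578652-83578681, minus strand): tttgaactttGGAAAGCCCCaagtcacctt
Ccr1 (chr9:123968747-123968776, minus strand): ctttagaaggGGGAGGCTCCtcactgacca
Ackr2 (chr9:121898121-121898150, plus strand): acagcacagtGGGGAATCCCactgaggggg
Ccrl2 (chr9:111057555-111057584, minus strand): actttcccccGGGGCTTCCCctgagcgggg
Cxcl10, κB (chr5:92348973-92349002, minus strand): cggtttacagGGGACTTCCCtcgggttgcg
Cxcl10, response element (chr5:92349083-92349112, minus strand): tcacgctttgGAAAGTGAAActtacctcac
Cxcl14, response element (chr13:56296704-56296733, minus strand): gtgtccacagGAAACAGAAAagcagcaccc
Among tested members with a promoter the κB consensus stood in 1 of 6 that fell in cold and in 2 of 13 that did not pass the test. The other κB matches were in Ccl1, Ccl20, Ccr3, Ccr6, Cxcl1, Cxcl2 and Cxcl3, none of which passed the filter. A match is a string of letters and no evidence of binding.

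The neighbouring genes Ccl6 and Ccl9 were compared in the same way, after their values had been seen. The longest stretch that their 250 upstream bases share is 13 bases long. It was picked because both genes hold it, and other pairs of genes were not compared, so its rarity is no result about the pair. It is held by 5 of the 27025 genes with a promoter (0.0185%), these 2 among them. It is shown in capitals:
Ccl6 (chr11:83593121-83593150, minus strand): cattcttgGCCCTCCACTTCCtgttgcatt
Ccl9 (chr11:83578637-83578666, minus strand): gccccaagtcacctttGCCCTCCACTTCCc

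**Figure D1:**
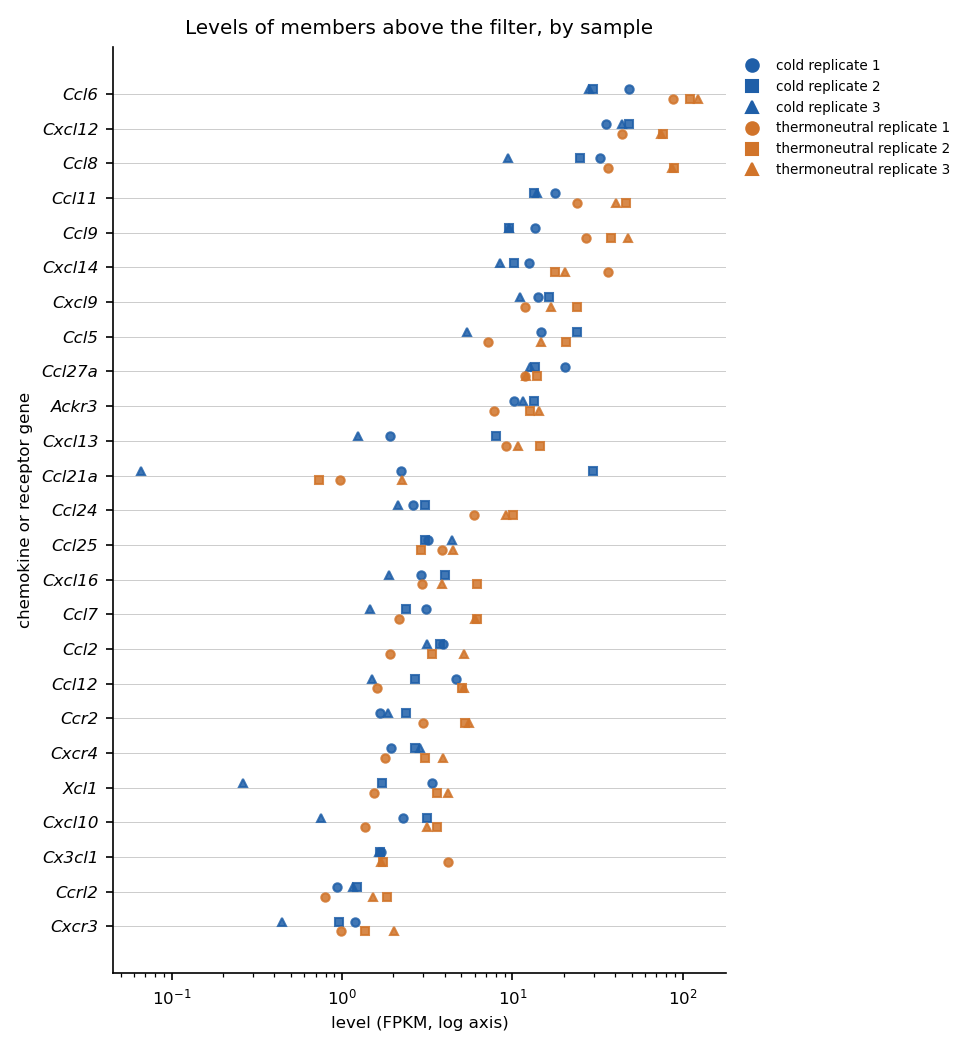
Levels of 25 members that passed the filter, as FPKM on a log axis, with 1 point per sample (blue, cold; orange, thermoneutral; symbol shape, replicate) and genes ordered by their mean. Ccl6 and Cxcl12 stand at the top, and the cold points lie below the thermoneutral points for 9 of the 25 genes.

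On the deposited scale, cold iWAT held less mRNA of the CC ligands Ccl6, Ccl8, Ccl9, Ccl11 and Ccl24. The receptor Ccr2 and the CXC ligands Cxcl13 and Cxcl14 were lower too. Of the 26 tested members, 9 fell in cold at the threshold of 0.05 on the adjusted p (limma with Benjamini-Hochberg adjustment over all 11650 genes) and 0 were higher, also at an unadjusted p under 0.05. Of all genes tested, 35.2% were lower and 6.24% higher, so the share of members that fell was close to that of all genes and is no result about the family. With the study's thresholds (unadjusted p of 0.05, 2-fold), 9 members were lower and 0 higher, where 18.6% and 4.21% of all genes were. The highest cold sample lay below the lowest thermoneutral sample in 10 members and the reverse in 0, against 52.1% and 9.09% of all genes. The median log2 fold change was -0.48 over the members and -0.54 over all genes tested. In bulk tissue, fewer cells of a type and less RNA per cell cannot be told apart.

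Relative to the median gene, 2 members were lower and 0 higher after centring, where 5.35% of all genes were lower and 10.3% higher. These were Ccl6 and Ccl24. On the deposited scale 21 of the 26 members had a log2 fold change below 0, and after centring 12 did, so that the direction of 9 members, none of them called, changed with the scaling. The calls of Ccl6, Ccl24 and Ccl9 also held when any 1 of the 6 samples was left out, and those of Cxcl14, Ccl11, Ccr2, Ccl8 and Cxcl13 held in 3, 2, 2, 1 and 1 of these 6 fits. The count of lower members was 4 without cold replicate 3, 4 without thermoneutral replicate 2 and 3 without thermoneutral replicate 3. Without cold replicate 2 and thermoneutral replicate 1 together, 11 members were lower, where 41.5% of all genes were, and Ccl7 and Cxcl16 were the additions.

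**Figure D2:**
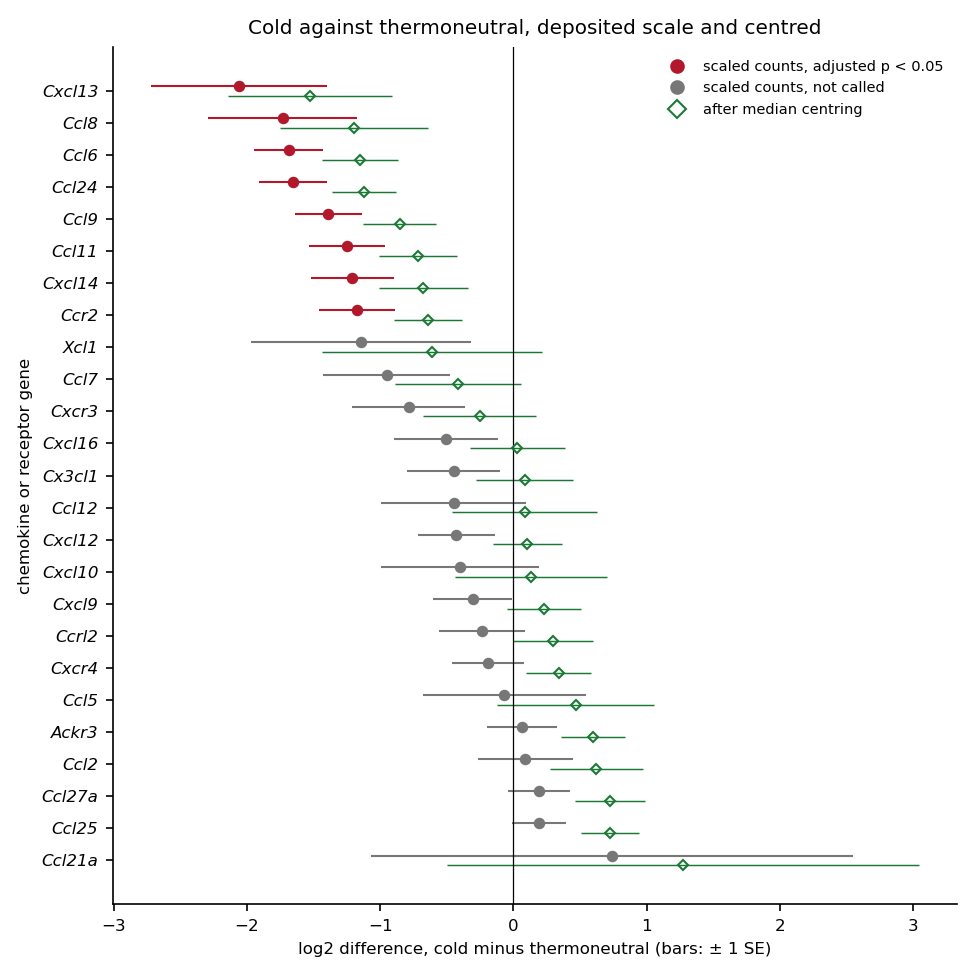
Log2 difference between cold and thermoneutral samples for 25 tested members, with bars of 1 standard error. Filled circles are on the deposited scale (red, adjusted p under 0.05; grey, not called) and open diamonds after median centring, all of which lie to the right of the circles.

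The inflammatory CC ligands include the members Ccl6, Ccl9, Ccl24, Ccl11 and Ccl8 that fell in cold. Of 12 such genes in the table, 9 were tested, 5 fell and 4 did not pass the test, where 35.2% of all genes fell. Their median log2 fold change was -1.25, against -0.54 over all genes tested. After centring 2 of the 9 were lower, where 5.35% of all genes were, and the median was -0.72. Ccl6, a rodent ligand of Ccr1 made by macrophages, lies on chromosome 11 from 83587882 to 83593087 (GRCm38) and had the highest mean level of any member over the 6 samples, though not in cold, where Cxcl12 was higher. It had 914, 576 and 545 scaled counts in the cold samples and 1726, 2234 and 2495 in the thermoneutral samples. The lowest thermoneutral sample was well above the highest cold sample, and Ccl6 fell by 1.69 on the log2 scale (SE 0.26; adjusted p = 0.0082 from limma, and 0.040 after centring). Its mean level was 35.4 ± 11.3 FPKM (SD, n = 3) at 4 °C and 107 ± 18.2 FPKM (SD, n = 3) at 30 °C.

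Ccl9, the other rodent ligand of Ccr1, lies 9.25 kb from Ccl6, from 83572919 to 83578636. It had 498, 331 and 319 scaled counts in cold and 782, 1037 and 1168 in thermoneutral samples (log2FC -1.39, SE 0.25, adjusted p = 0.011, and 0.082 after centring). As for Ccl6, cold replicate 1 was the highest cold sample and thermoneutral replicate 3 the highest of all. The FPKM of Ccl6 was 3.58, 3.13 and 2.95 times that of Ccl9 in the cold samples and 3.23, 2.91 and 2.59 times in the thermoneutral samples, so that the ratio of the 2 genes overlapped between the groups while each gene did not.

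Ccl24 and Ccl11 encode eotaxins, ligands of Ccr3 on eosinophils. Ccl24, on chromosome 5 from 135569937 to 135573049, had 66.3, 78.0 and 54.0 scaled counts in cold and 151, 256 and 231 in thermoneutral samples (log2FC -1.65, SE 0.26, adjusted p = 0.0084, and 0.026 after centring). Ccl11, which fibroblasts and other stromal cells make, had 370, 277 and 288 scaled counts in cold and 495, 963 and 836 in thermoneutral samples (log2FC -1.25, SE 0.29, adjusted p = 0.019, and 0.15 after centring). Both ligands were lower in every cold sample than in every thermoneutral sample. Their receptor Ccr3 was listed at 0 in 4 samples and had 6.33 scaled counts in cold replicate 2 and 2.04 in thermoneutral replicate 1. Among eosinophil markers, all under the filter, Epx and Il5ra did not exceed 0.072 FPKM in any sample, and Prg2 was at 0.75, 0.56 and 0.28 FPKM in cold and 0.14, 0.25 and 0.11 in thermoneutral samples, higher in every cold sample. Of 4 tested mast cell markers, 4 fell in cold, where 35.2% of all genes did. Ccl26, the third eotaxin gene by name, was listed at 0 throughout.

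Ccl8, a ligand of Ccr8 in the mouse, had 256, 192 and 72.7 scaled counts in cold and 281, 697 and 679 in thermoneutral samples. The groups did not overlap, but cold replicate 1 and thermoneutral replicate 1 nearly met, and the log2 fold change of -1.73 had a standard error of 0.56 (adjusted p = 0.047, and 0.19 after centring). Ccr8 was listed at 0 in the cold samples and at 0, 2.90 and 0 scaled counts in the thermoneutral samples, near the limit of 2.49 to 3.43 scaled counts that 3 fragments make in these libraries.

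The monocyte attractants did not pass the test. Ccl2, the main ligand of Ccr2, had 59.4, 59.1 and 46.7 scaled counts in cold and 30.6, 53.2 and 82.9 in thermoneutral samples. The cold values lay within the thermoneutral range, and the log2FC was 0.09 (SE 0.36, adjusted p = 0.85). Ccl7 and Ccl12, also ligands of Ccr2, had log2 fold changes of -0.95 (SE 0.48) and -0.45 (SE 0.55), neither past the test. Ccl7 was called only without thermoneutral replicate 1 among the 6 fits that left out 1 sample, at -1.45 (adjusted p = 0.017).

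Ccl5, which attracts T cells and monocytes, was among the 10 members with the highest level. It had 122, 196 and 44.7 scaled counts in cold and 59.2, 171 and 122 in thermoneutral samples, with full overlap and a log2FC of -0.07 (SE 0.61). Its order within each group was the order of the T cell markers, whose summed FPKM was 13.3, 27.2 and 2.74 in cold and 3.65 to 8.89 in thermoneutral samples, and their part in the Ccl5 values was not tested. Ccl3 and Ccl4, inflammatory ligands of the same family, stayed under the filter, at 1.04 to 14.5 scaled counts.

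Ratios between neighbouring genes of the chromosome 11 cluster need no scaling between samples. Ccl2, Ccl7, Ccl11, Ccl12 and Ccl8 follow each other between 82035571 and 82116799, and Ccl11 starts 10.3 kb after Ccl7. The FPKM of Ccl11 was 4.59, 3.58 and 4.45 times that of Ccl2 in cold and 12.6, 13.8 and 7.78 times in thermoneutral samples. Against Ccl7, the gene next to it, Ccl11 stood at 5.76, 5.69 and 9.58 times in cold and at 11.2, 7.50 and 6.72 times in thermoneutral samples, and the groups overlapped (exact permutation p of 0.5). Ccl8 stood at 7.06, 9.30 and 6.28 times the level of Ccl12 in cold and at 22.8, 17.6 and 16.6 times in thermoneutral samples. In the neighbouring group Ccl6 had 3.30, 1.24 and 5.17 times the level of Ccl5 in cold and 12.1, 5.37 and 8.41 times in thermoneutral samples. Of 7 neighbour ratios, chosen after the values had been seen, 4 did not overlap between the groups, all lower in cold. The 7 include Cxcl9 over Cxcl10 on chromosome 5, and not all pairs lie side by side. Each of the 4 set a member that fell over one that was not called. The share of such ratios among gene pairs at large was not computed. Each of the 4 had a two-sided exact permutation p of 0.1, below which 3 against 3 samples cannot go. After adjustment over the 7 it was 0.175, so none passed.

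The monocyte receptor Ccr2 also fell in cold. It lies on chromosome 9 from 124101950 to 124113557 and had 122, 175 and 136 scaled counts in cold and 218, 389 and 397 in thermoneutral samples (log2FC -1.17, SE 0.29, adjusted p = 0.022, and 0.14 after centring). Thermoneutral replicate 1 was the lowest of its group and still above every cold sample. In FPKM, Ccr2 was at 1.97 ± 0.37 (SD, n = 3) in cold.

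Ccr1, the receptor of Ccl6 and Ccl9, stayed under the filter. It had 19.4, 28.5 and 19.7 scaled counts in cold and 58.2, 66.8 and 110 in thermoneutral samples, and in a fit without the filter its log2FC was -1.72 (SE 0.31, adjusted p = 0.027). That fit covered 17454 genes, of which 15.7% were lower and 3.73% higher in cold, and 57 members, of which 7 were lower and 0 higher. The ratio of Ccl6 to Ccr1 in FPKM was 150.1, 62.7 and 85.4 in cold and 90.4, 99.6 and 67.3 in thermoneutral samples, and the groups overlapped. Cx3cr1, the fractalkine receptor of monocytes and tissue macrophages, and Xcr1, of cross-presenting dendritic cells, had 5.19 to 26.5 and 7.997 to 24.9 scaled counts, and Cxcr1 and Ccr1l1 did not exceed 2.90.

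Within samples, the levels of some ligands were also set against that of a receptor they are known to bind. The pairs were chosen after the values had been seen. They did not include Ccl8, Ccl11, Ccl24, Cxcl13 or Cxcl14, which fell in cold. Of 12 such pairs, 1 ratio was higher in every cold sample, 2 were lower and 9 overlapped. How often the ratios of gene pairs at large do not overlap was not computed. The FPKM of Ccl2 was 2.32, 1.58 and 1.70 times that of Ccr2 in cold and 0.64, 0.64 and 0.93 times in thermoneutral samples. The ratios of Cxcl12 to its receptor Cxcr4 and to Ackr3 were lower in cold. Each of the 3 had an exact permutation p of 0.1 (two-sided) and of 0.4 after adjustment over the 12.

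**Figure D3:**
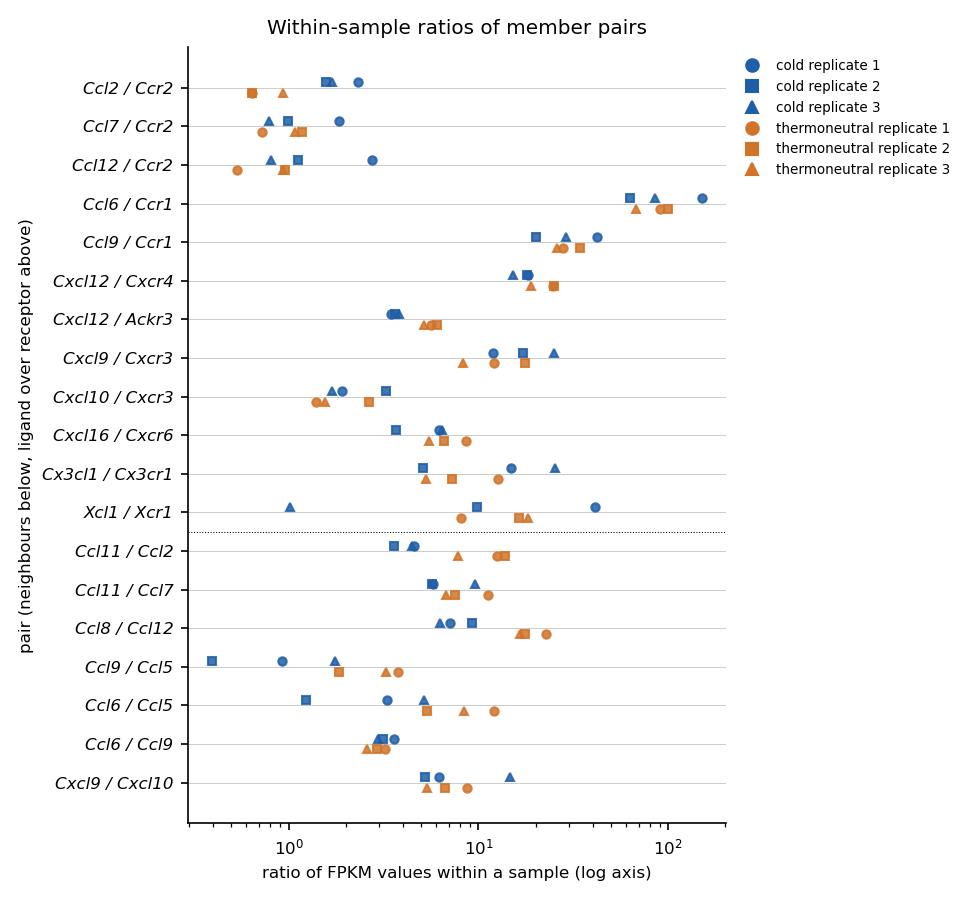
Ratio of FPKM values within each sample on a log axis for 12 ligand and receptor pairs (above the dotted line) and 7 pairs of neighbouring genes (below it), with 1 point per sample (blue, cold; orange, thermoneutral). Ccl2 over Ccr2 lies to the right in cold at 1.58 to 2.32, Ccl11 over Ccl2 to the left at 3.58 to 4.59, and Ccl6 over Ccl9 stays between 2.59 and 3.58 in all samples.

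Macrophage markers moved with these members. Of 14 tested macrophage markers 13 fell in cold, where 35.2% of all genes did, and 8 after centring, where 5.35% did. The scavenger receptor Cd163 was among them. The summed level of the list was 236 to 410 FPKM in cold and 659 to 1088 in thermoneutral samples. Of 4 tested monocyte markers, 3 fell, Ccr2 being one of the list. So did 13 of 15 fibroblast and preadipocyte markers, against the same 35.2% of all genes. Set against 100 FPKM of summed macrophage markers, Ccl6 stood at 11.8, 8.54 and 11.9 FPKM in cold and at 13.3, 10.6 and 11.3 in thermoneutral samples, and Ccr2 at 0.41, 0.68 and 0.79 against 0.45, 0.50 and 0.51. The groups thus overlapped on this scale, as they also did for Ccl24, Ccl9, Ccl8, Ccl11, Cxcl13 and Cxcl14. The sum leans on abundant markers that fell less than the median of the list, a log2FC of -1.82. Lyz2 alone had 111 to 180 FPKM in cold and 238 to 425 in thermoneutral samples, and a log2FC of -1.22. Ratios to single macrophage markers were not tested and can differ from those to the sum. Ccl2 stood at 0.95, 1.08 and 1.33 in cold and at 0.29, 0.32 and 0.48 in thermoneutral samples. Over the 26 members, 13 were higher in every cold sample on this scale and 0 lower, where 53.0% and 1.22% of all tested genes were. The part of cell numbers in the differences was not tested.

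**Figure D4:**
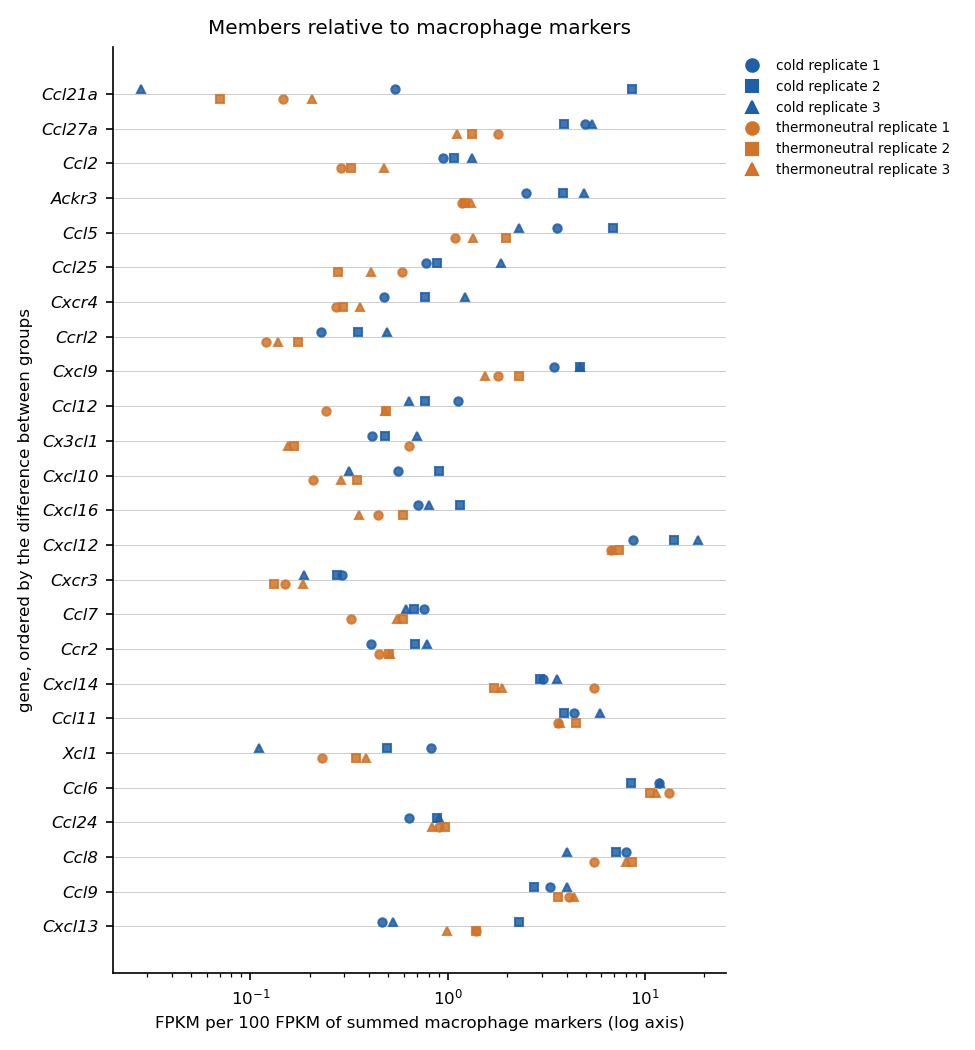
FPKM of 25 tested members per 100 FPKM of 14 summed macrophage markers, on a log axis, with 1 point per sample and genes ordered by the difference between the groups. The groups overlap for Ccl6, Ccl9, Ccl24, Ccl8 and Ccr2, while the 3 cold points of Ccl2 lie at 0.95 to 1.33 and the thermoneutral points at 0.29 to 0.48.

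The Cxcl12 axis did not pass the test. Cxcl12, which holds leukocytes and progenitor cells in tissues, had the second highest mean level over the 6 samples. By group its mean was the highest in cold, at 42.7 FPKM, and lay below those of Ccl6 (107 FPKM) and Ccl8 (70.8 FPKM) in thermoneutral samples, at 65.0 FPKM. It had 2412, 3528 and 3636 scaled counts in cold and 2922, 5054 and 5105 in thermoneutral samples (log2FC -0.43, SE 0.29, adjusted p = 0.26), and the groups overlapped through thermoneutral replicate 1. Ackr3, which scavenges Cxcl12, had 669, 873 and 756 scaled counts in cold and 510, 823 and 925 in thermoneutral samples (log2FC 0.06, SE 0.26). Cxcr4 had a log2FC of -0.19 (SE 0.27). Relative to the median gene the 3 genes stood at 0.11, 0.60 and 0.34, none past the test. Among the 6 fits leaving out 1 sample, Cxcl12 was called only without thermoneutral replicate 1, at -0.69 (adjusted p = 0.045 from limma). The FPKM ratio of Cxcl12 to Ackr3 was 3.48, 3.63 and 3.80 in cold and 5.66, 6.02 and 5.20 in thermoneutral samples.

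The interferon-induced ligands of Cxcr3 were present without a called difference. Cxcl9 had 877, 1012 and 679 scaled counts in cold and 737, 1483 and 1040 in thermoneutral samples (log2FC -0.30, SE 0.30, adjusted p = 0.42). Cxcl10 had a log2FC of -0.40 (SE 0.59), Cxcr3 of -0.78 (SE 0.42), and neither passed the test. Cxcl9 was expressed at 11.0 to 24.0 FPKM and Cxcl10 at 0.75 to 3.61, and the exons of Cxcl10 overlap those of Art3 on the other strand by up to 133 bases, so reads there cannot be assigned with certainty.

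The CXC ligands of neutrophils were low and did not pass the filter. Cxcl1 had 0 to 16.3 scaled counts, Cxcl2 was listed at 0 in cold and reached 8.29 in thermoneutral replicate 3, Cxcl3 was listed at 0 except for 1.05 in cold replicate 2, and Cxcl15 except for 1.04 in cold replicate 3. Cxcl5 was listed at 0 in all samples. With the exception of Cxcr2, described with the epithelial markers, their receptors were at similar levels.

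Cxcl14, a ligand of skin, fat and other barrier tissues, fell. It lies on chromosome 13 from 56288643 to 56296551 and had 467, 382 and 314 scaled counts in cold and 1361, 668 and 765 in thermoneutral samples (log2FC -1.21, SE 0.31, adjusted p = 0.025, and 0.22 after centring). Thermoneutral replicate 1, the library with high keratins, was the highest, and without it Cxcl14 had a log2 fold change of -0.90 and was still called. The transmembrane ligand Cx3cl1 (fractalkine) had 119.95, 119 and 116 scaled counts in cold and 286, 124 and 120.3 in thermoneutral samples. The groups did not overlap, by a margin of under 1 scaled count, and the log2FC of -0.45 (SE 0.35, adjusted p = 0.31) was -0.04 without thermoneutral replicate 1. Cxcl16, the other transmembrane ligand, had a log2FC of -0.51 (SE 0.39), and its exons overlap Zmynd15 on the other strand by up to 552 bases.

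The tested barrier and thymus ligands, Ccl27a and Ccl25, did not pass the test on either scale. After centring each had a log2FC of 0.73, with SE 0.26 and 0.22 and adjusted p of 0.11 and 0.072 from limma. Ccl27a, a skin ligand of Ccr10, had 208, 128 and 134 scaled counts in cold and 120.4, 148 and 134 in thermoneutral samples (log2FC 0.19, SE 0.23). Near-identical copies exist for this gene, Ccl27b was listed at 0 throughout, and the counts of such copies are uncertain. Ccl25 had 62.0 to 63.3 scaled counts in cold and 43.4 to 67.8 in thermoneutral samples (log2FC 0.19, SE 0.20), and its exons overlap Elavl1 on the other strand by up to 181 bases. Under the filter, Ccr10 was the only member with all cold samples above all thermoneutral samples, at 61.7, 35.9 and 33.2 scaled counts against 5.10, 20.3 and 21.6. Its log2 fold change without the filter was 1.58 (SE 0.59, adjusted p = 0.11), which did not pass.

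The lymphoid organ genes were uneven across the cold samples. Ccl21a, the lymphatic and lymph node ligand of Ccr7, had 35.4, 471 and 1.04 scaled counts in cold and 15.3, 11.6 and 35.7 in thermoneutral samples. Ccl19, the other Ccr7 ligand, had 55.9 scaled counts in cold replicate 2 and 1.02 to 2.90 in the other 5 samples, and Ccr7 itself had 57.1, 109.7 and 3.12 in cold and 10.8 to 24.2 in thermoneutral samples. Cold replicate 2 stood far above all others in Ccl21a and Ccl19. It was also the highest in Ccr7, which was raised in cold replicate 1 too. Cxcr5, the follicular B cell receptor, had 113 scaled counts in cold replicate 2 and 2.04 to 14.9 elsewhere. Ccr6 had 25.3 in that sample and was listed at 0 in the other 5, and Ccl22, a dendritic cell ligand, had 128 against 11.2 to 32.0.

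The same library was highest in B cell markers (67.3 FPKM summed), T cell markers (27.2 FPKM) and Glycam1 of high endothelial venules, at 25.6 FPKM against at most 0.16 in the others. The list of lymph node stroma and high endothelium that holds Glycam1 was mixed. Cr2, Ltb and Chst4 were also highest in this library, while Madcam1, Fcgbp, Clu, Enpp2 and Il7 were not. The list summed to 133 FPKM there, 66.6 and 75.5 in the other cold samples, and 116, 186 and 180 in thermoneutral samples. The part of all these markers in the values of the members was not tested. Ccl21a had a log2FC of 0.74 (SE 1.81) with the library and of -1.19 without it, so its direction rests on cold replicate 2, and neither passed the test. Ccl21a also has near-identical copies, of which Ccl21b was listed at 0 in all samples.

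Cxcl13, which draws B cells into follicles through Cxcr5 and is also made by macrophages and stromal cells, went against this pattern. It had 43.4, 181 and 28.0 scaled counts in cold and 207, 330 and 246 in thermoneutral samples (log2FC -2.06, SE 0.66, adjusted p = 0.046, and 0.14 after centring). All cold samples were below all thermoneutral samples although cold replicate 2 stood apart from the other cold samples. Without cold replicate 2 the log2 fold change was -2.84 (adjusted p = 0.012), and this was the only one of the 6 fits leaving out 1 sample in which Cxcl13 passed the test.

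**Figure D5:**
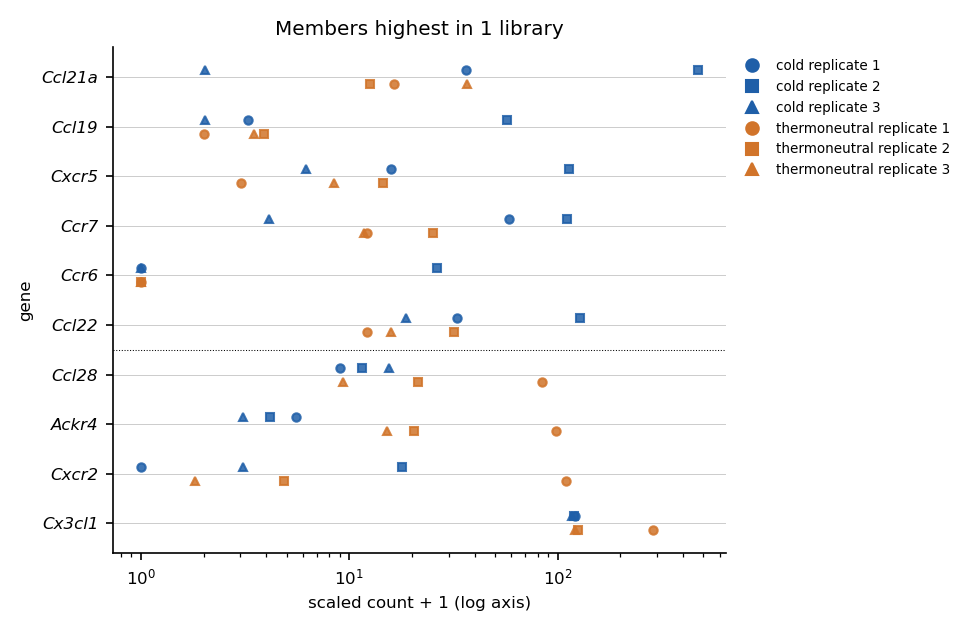
Scaled counts plus 1 on a log axis for 10 members, with 1 point per sample. Above the dotted line, Ccl21a, Ccl19, Cxcr5, Ccr7, Ccr6 and Ccl22 are highest in cold replicate 2 (blue square, 471 for Ccl21a), and below it Ccl28, Ackr4, Cxcr2 and Cx3cl1 are highest in thermoneutral replicate 1 (orange circle, 286 for Cx3cl1).

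Other members were high in thermoneutral replicate 1. Cxcr2 had 108 scaled counts there and 0 to 16.9 elsewhere, Ccl28, a ligand of mucosal epithelia, 82.6 against 7.997 to 20.3, and Ackr4, a scavenger of Ccl19, Ccl21 and Ccl25 that keratinocytes express, 96.9 against 2.08 to 19.4. Krt14 of basal keratinocytes was at 659 FPKM in that library and at 0.12 to 1.10 in the others. The part of the epithelial markers in these values was not tested. Ackr4 was lower in every cold sample, at 4.57, 3.16 and 2.08 scaled counts, than in the other thermoneutral samples too, at 19.4 and 14.1. Its log2 fold change without the filter was -2.91 (SE 0.76, adjusted p = 0.051 from limma). The exons of Ackr4 overlap those of Acad11 on the other strand by up to 352 bases, so reads there cannot be assigned with certainty.

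Ackr2, the scavenger of inflammatory CC ligands on lymphatic endothelium, was another atypical receptor that was low in cold. It had 27.4, 14.8 and 17.7 scaled counts in cold and 49.0, 72.6 and 93.7 in thermoneutral samples, and its log2 fold change without the filter was -1.79 (SE 0.34, adjusted p = 0.030). Of 3 tested lymphatic endothelial markers 2 fell, where 35.2% of all genes did. These were Lyve1, which is also on the macrophage list, and Pdpn, while Flt4 had a log2FC of -0.18 (SE 0.28). Of 8 blood endothelial markers 2 fell, a smaller share than that of all genes. Ccrl2, which presents chemerin, had a log2FC of -0.24 (SE 0.33) and was lower in cold only without thermoneutral replicate 1, at -0.59 (adjusted p = 0.043). Ackr1 stands in the table under its older symbol Darc, outside the rule, with 170, 125 and 117 scaled counts in cold and 226, 304 and 373 in thermoneutral samples (log2FC -1.11, SE 0.25, adjusted p = 0.018).

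The remaining members were Xcl1, Ccl1, Ccl17, Cxcl17, Ccr4, Ccr9 and Cxcr6. Xcl1 passed the filter and had 27.4, 13.7 and 2.08 scaled counts in cold and 12.2, 29.0 and 34.0 in thermoneutral samples (log2FC -1.15, SE 0.83, adjusted p = 0.28). Cxcr6 had 11.4 to 42.2 scaled counts with the highest value in cold replicate 2, and Ccl1, Ccl17, Cxcl17, Ccr4 and Ccr9 did not exceed 7.38. Ccl20 was listed at 0 in all samples. Ccl25 and Ackr4 each have another row, with at most 17.9 and 1.02 scaled counts, under an ID that the annotation used here (GENCODE M21) does not hold.

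The pathway lists held genes outside the rule. They covered signalling and migration downstream of the receptors, regulators of chemokine genes, proteases and binders of chemokines, and platelet chemokines. Of 94 tested genes on all lists together, 37 fell (39.4%) and 2 rose (2.13%), where 35.2% and 6.24% of all genes did. The share that fell was close to that of all genes and is no result about the lists together. It differed between the lists, which are given one by one below. The lower count was 19 without cold replicate 3 and 11 without thermoneutral replicate 2 or 3. Of 19 tested G protein subunits and effectors, 4 fell and 1 rose, with Gnai3, an inhibitory α subunit, at a log2 fold change of -1.04, the kinase Prkcd at -1.004 and the phospholipase Plcb2 at 0.92. Of 10 tested receptor kinases, arrestins and regulators of G protein signalling, 3 fell and 1 rose. The kinase gene Adrbk2 (Grk3) had 1828, 2304 and 2719 scaled counts in cold and 379, 383 and 469 in thermoneutral samples (log2FC 2.46, SE 0.21, adjusted p = 0.0018). The arrestin gene Arrb2, which takes receptors off the membrane, had a log2 fold change of -0.88 (adjusted p = 0.034). In both of these lists the share that fell was below the 35.2% of all genes and is no result about the list. After centring, 0 genes of these lists were lower and 2 in each were higher, where 5.35% and 10.3% of all genes were.

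Of 25 tested genes of migration, 9 fell and 0 rose, where 35.2% and 6.24% of all genes did. The share that fell was close to that of all genes and is no result about the list. Src was at -1.78, the adaptor Pxn at -0.92 and the kinase Rock2 at -1.08 on the log2 scale. After centring 1 gene was lower and 1 higher, where 5.35% and 10.3% of all genes were. Of 22 regulators of the NF-κB and STAT pathways, 7 fell and 0 rose, again a share close to that of all genes and no result about the list. Among them were Stat3 at -0.96, Stat2, which carries interferon signals, at -1.34, and Tnfaip3, a brake on NF-κB, at -1.21. After centring 1 was lower. The group with the larger share was that of proteases and matrix binders of chemokines, in which 13 of 17 fell and 0 rose. After centring 6 were lower and 1 higher, against the same 5.35% and 10.3% of all genes. The gelatinase Mmp2 had a log2 fold change of -2.05, the proteoglycan Dcn of -1.93 and the protease Mmp3 of -1.73. Pf4, a CXC chemokine of platelets and macrophages whose symbol lies outside the rule, had 252, 174 and 170 scaled counts in cold and 379, 636 and 685 in thermoneutral samples (log2FC -1.48, SE 0.29, adjusted p = 0.013, and 0.081 after centring).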

How the data were processed

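The members and the gene lists were chosen with earlier results of these data known. The authors prepared TruSeq libraries from total RNA of iWAT and sequenced them on a NovaSeq instrument, and describe a low-count filter, TMM scaling and CPM in the methods. Bowtie 0.12.2 and the builds mm8 and mm10 are listed in the submitters' processing notes, with no role given, and the counter and its strand setting are not given in the sources used here. The FPKM values are, per the file headers, fragments that the authors divided by transcript length and library size. The deposited count columns are a signal already scaled by the authors: 94.0% to 94.8% of low values were whole multiples of 1 step per sample, to within 0.02 of a step, and the rest were not, so the count columns are not raw and no test for raw counts was run. Dividing by the step gives an estimated 15261977 to 23636647 fragments per sample, and 3 fragments, the limit for a value of 0, make 2.49 to 3.43 scaled counts, which covers counting error only.

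Columns were matched to samples by the initial and number in their names. Genes whose FPKM reached 1 in 3 or more samples were fitted with limma 3.58.1 in R 4.3.3 on log2(scaled count + 1), with no covariate and Benjamini-Hochberg adjustment over all genes, and log2 fold changes on this scale understate the change of low genes. Calls used an adjusted p of 0.05 or the study's thresholds (p of 0.05 and 2-fold). The script was tested on simulated data. Of the 79 symbols with several rows, only the row with the higher mean was used for the symbol. Every member was counted, 1 of them is not reported here by name or in the plots, and values per sample were given for those called, not overlapping or among the 10 with the highest mean FPKM; other members given in full (Ccl2, Xcl1, Ccr1, Ackr2, Ackr4, Ccr10 and the genes high in 1 library), the ratios and the shared promoter stretch were chosen after their values were seen. Ratios used FPKM and exact two-sided permutation tests. Gene positions and exon overlaps came from GENCODE M21 (GRCm38) and promoters from RefSeq (GRCm38.p6). Alternatives changed the scaling, pseudocount, filter, unit, variance model and samples. Python 3.11.15 with pandas 2.3.3 read the tables.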

Additional observations from a re-analysis of the deposited data

How the results depend on the processing

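Among the 26 tested members, 9 were lower and 0 higher in cold. The count of lower members was 2 with median centring and 2 with quantile normalization, 1 with centring and without cold replicate 2 (chosen after seeing the data), and 3 to 11 when 1 sample was left out, with 4 without cold replicate 3, 4 without thermoneutral replicate 2 and 3 without thermoneutral replicate 3. It was 9 on FPKM values, with either other pseudocount and with trend and robust options, 7 without a filter and 10 with a filter on scaled counts. At the study's thresholds it was 3 with centring and 3 with quantile normalization, and 1 member, Ccr10, was higher without a filter or with a filter on scaled counts. No called member changed sign under any alternative. Of the pathway genes, 37 were lower and 2 higher. These counts became 8 and 6 with centring, 9 and 5 with quantile normalization, 23 and 1 without a filter, 64 lower without cold replicate 2 and thermoneutral replicate 1, and 1 higher on FPKM values, and they ranged from 11 to 54 lower and from 1 to 3 higher when 1 sample was left out. Of the macrophage markers, 13 were lower and 8 with centring. The replicate block, with the number shared by a cold and a thermoneutral sample, gave 7 lower members, Ccl8 and Ccl11 being lost. Deviations of samples with the same number had correlations of -0.00, 0.04 and 0.07, and those with different numbers of -0.06 to 0.01. No clear pairing by number was seen, and these values cannot exclude one. The planned count tests, edgeR and DESeq2, were not run because the deposited counts are scaled. With 3 samples in a group, leaving out 1 leaves the spread to 5 samples, members under the filter rest on few fragments, and a 2-fold change near the filter need not be detectable.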
